A study of Mus musculus with 8 samples.

Results

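The insulin-like growth factor (IGF) genes measured in the tibialis anterior (TA), a fast-twitch muscle of the lower leg, were compared between wild-type (WT) and homozygous Klotho-null (KL-/-) mice. They were chosen by gene symbol and comprise both ligands (*Igf1*, *Igf2*), both receptors (*Igf1r*, *Igf2r*) and 5 binding proteins (*Igfbp3* to *Igfbp7*). All 9 were found among the 12551 genes of the count table. RNA was taken from the TA of 7-week-old male mice, 4 WT and 4 KL-/-, on a mixed background, with both genotypes bred from heterozygous parents. The null allele is present in every tissue of the KL-/- mice, so the comparison is not one of a muscle-specific loss. The batch date of KL-/- replicate 3 differs from that of the remaining 7 libraries, and the date and the mouse cannot be told apart. *Kl* itself is not among the counted genes, so the counts cannot check the genotype labels of these libraries. The paper reports PCR genotyping of its mice, with neither Klotho protein nor *Kl* mRNA detected in KL-/- muscle.

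Total counts were 20860262 to 26501093 in the WT libraries and 22061526 to 29273758 in the KL-/- libraries. Levels are given as CPM, the counts divided by the library's total after scaling by trimmed-mean (TMM) factors. By library totals without that scaling, 3 counts correspond to 0.102 to 0.144 CPM, far under every member. The 10 fast myofibre markers were all measured and summed to 137903 to 159863 CPM in WT and 159812 to 207220 CPM in KL-/-, so the defining genes of the labelled muscle were present. Because whole muscle was sequenced, fewer cells of a type and less RNA per cell cannot be told apart in any value below.

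IGF1 and IGF2 are small secreted proteins related to insulin. Both signal through the tyrosine kinase receptor IGF1R, which activates the PI3K-AKT pathway that favours protein synthesis in muscle. IGF2R, also the cation-independent mannose 6-phosphate receptor, carries IGF2 to the lysosome for destruction. The binding proteins hold the ligands in blood and matrix, and proteases release them. In mice *Igf2* is expressed from the paternal allele and *Igf2r* mainly from the maternal allele, and *Igf2* normally falls after birth while *Igf1* is maintained by growth hormone.

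Promoter windows of the ligands and of *Igfbp6* are shown because these 3 genes had the largest differences between the genotypes. Windows came from RefSeq on GRCm38.p6, the assembly of mm10, and cover 250 bases before to 50 bases after an annotated start. All 9 members had a window. Each line runs 5′ to 3′ on the gene's strand, and capitals mark a match on either strand to the TATA box (letters TATAAA), to the box named by its letters CCAAT, or to the GC box (letters GGGCGG). No match overlaps another in these windows.
Igf1, chr10:87860861-87861160, plus strand: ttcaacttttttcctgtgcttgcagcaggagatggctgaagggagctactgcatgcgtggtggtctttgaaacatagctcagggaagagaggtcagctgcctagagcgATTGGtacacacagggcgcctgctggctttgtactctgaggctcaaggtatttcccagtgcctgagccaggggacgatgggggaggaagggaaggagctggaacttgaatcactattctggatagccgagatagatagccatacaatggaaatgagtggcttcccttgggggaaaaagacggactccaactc
Igf2, upstream start, chr7:142658755-142659054, minus strand: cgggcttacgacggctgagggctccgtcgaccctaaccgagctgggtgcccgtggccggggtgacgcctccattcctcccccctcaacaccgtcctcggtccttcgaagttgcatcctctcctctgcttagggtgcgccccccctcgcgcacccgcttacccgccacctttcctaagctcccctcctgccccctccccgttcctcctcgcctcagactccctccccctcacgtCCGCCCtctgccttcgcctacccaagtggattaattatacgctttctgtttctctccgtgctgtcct
Igf2, downstream start, chr7:142657447-142657746, minus strand: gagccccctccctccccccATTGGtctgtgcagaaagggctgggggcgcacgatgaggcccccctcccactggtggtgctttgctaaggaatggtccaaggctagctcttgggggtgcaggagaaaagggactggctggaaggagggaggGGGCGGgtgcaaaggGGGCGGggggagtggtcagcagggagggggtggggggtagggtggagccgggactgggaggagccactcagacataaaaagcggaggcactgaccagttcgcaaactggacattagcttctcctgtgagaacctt
Igfbp6, chr15:102143936-102144235, plus strand: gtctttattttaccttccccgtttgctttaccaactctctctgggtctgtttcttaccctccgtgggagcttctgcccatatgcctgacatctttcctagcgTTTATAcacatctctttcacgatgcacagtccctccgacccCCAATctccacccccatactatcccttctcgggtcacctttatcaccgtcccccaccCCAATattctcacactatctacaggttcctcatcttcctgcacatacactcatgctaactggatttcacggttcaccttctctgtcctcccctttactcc

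The *Igf1* window held 6 CpG dinucleotides and 1 CCAAT box. The upstream *Igf2* window held 24 CpG and 1 GC box, and the downstream window held 7 CpG, 1 CCAAT box and 2 GC boxes. The *Igfbp6* window held 8 CpG, 2 CCAAT boxes and 1 match to the TATA box letters, on the opposite strand (TTTATA). Each box counted here is a match to the letters at any position of the window, and whether any of them works was not tested. Over 32851 RefSeq windows of the same length, the median was 7 CpG, and the TATA, CCAAT and GC boxes were present in 13.6%, 37.4% and 35.7% of windows. TTCNNNGAA, the letters of the STAT motif, was in 8.3% of windows and in none of the 4 printed. The *Igf1* start shown, at 87861111, lies inside the counted span, which begins at 87859056. *Igf2* has other annotated starts upstream of the counted span, and counts per gene do not separate the starts.

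Between the genotypes, the ligands moved in opposite directions, *Igf1r* rose, and *Igfbp6* and *Igf2r* fell in KL-/- muscle. By edgeR's quasi-likelihood test, 5 of the 9 members passed a false discovery rate (FDR) of 0.05, against 14.0% of all 12551 genes. The 2 higher members compare with 7.35% of all genes called higher, and the 3 lower members with 6.67% called lower. The genotypes did not overlap for 5 members (*Igf1*, *Igf2*, *Igf2r*, *Igfbp4* and *Igfbp6*), against 19.7% of all genes. Of these, 1 was higher and 4 were lower in KL-/-, against 10.2% and 9.47% of all genes. The median log2 fold change was −0.49 over the members and −0.016 over all genes. The members were chosen with earlier results of these data known, so these shares describe the set and are not a test of it.

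**Figure D1:**
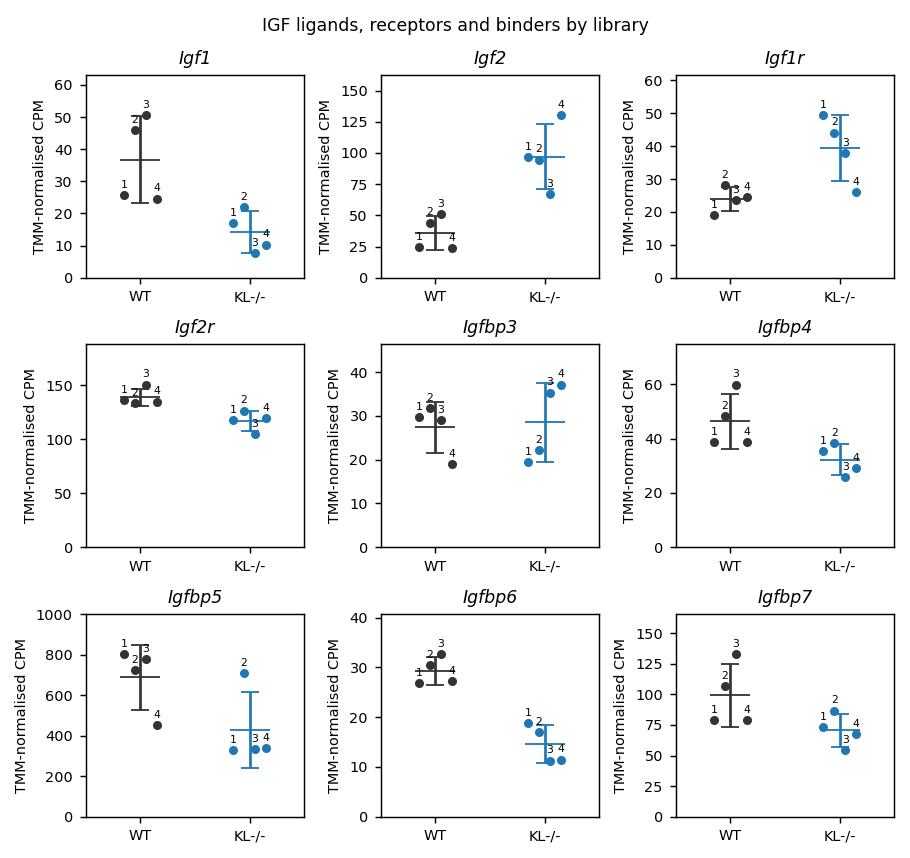
TMM-normalised CPM of the 9 members in each library, with WT in black and KL-/- in blue; numbers are replicates, horizontal lines are means and bars are 1 SD. *Igf2* lies at 67.1 to 130 CPM in KL-/- and below 51 CPM in WT, whereas *Igf1* and *Igfbp6* lie lower in every KL-/- library than in any WT library.

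**Figure D2:**
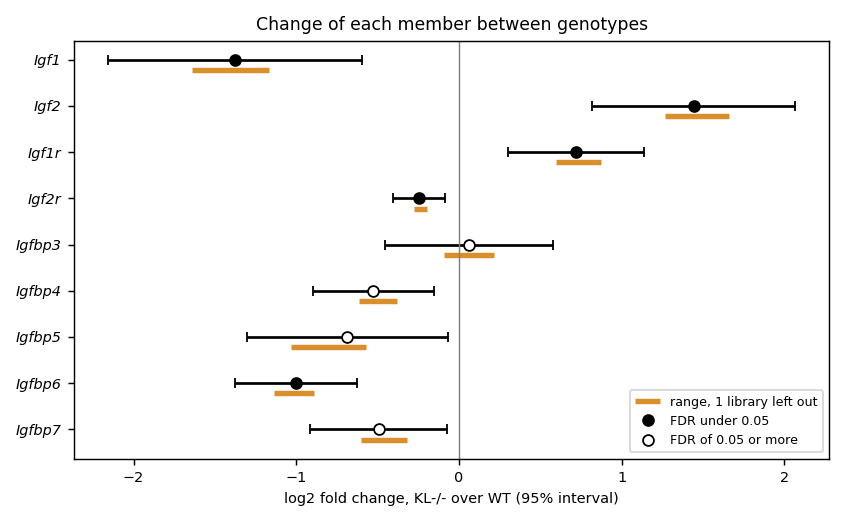
Log2 fold change of each member, KL-/- over WT, with its 95% interval; filled points passed FDR 0.05, and orange bars give the range when each library is left out. *Igf2* and *Igf1r* lie above 0, *Igf1*, *Igfbp6* and *Igf2r* below, and the *Igfbp3* interval runs from −0.45 to 0.58 around a value whose sign turns when library totals replace TMM.

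*Igf1* fell in KL-/- muscle. This gene, at chr10:87859056-87937047 on the plus strand of mm10, encodes the ligand that growth hormone induces in liver and muscle, and overlaps the antisense gene *Igf1os*, which is not in the count table. Its level was 25.7, 45.9, 50.6 and 24.6 CPM in WT replicates 1 to 4 and 17.1, 21.9, 7.54 and 10.3 CPM in KL-/- replicates 1 to 4. All KL-/- libraries were below all WT libraries, and WT 2 and 3 stood well above WT 1 and 4. The means were 36.7 ± 13.5 and 14.2 ± 6.49 CPM (SD, n = 4 per genotype), a log2 fold change of −1.37 (SE 0.35, 95% interval −2.15 to −0.59, FDR 0.0314). The direction held whichever library was left out, with log2 fold changes from −1.64 to −1.17. FDR passed 0.05 in 3 of these 8 fits, and was 0.0823 without WT 2, 0.0866 without WT 3, 0.0535 without KL-/- 1, 0.0684 without KL-/- 3 and 0.0903 without KL-/- 4.

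*Igf2* rose. Located at chr7:142650768-142661035 on the minus strand, it encodes the growth factor of fetal life that is also made during muscle differentiation. In the GENCODE annotation it overlaps *Mir483* and the gene *Gm49394* on its own strand and *Igf2os* on the other, none of them in the count table, so how shared reads were assigned is not known. Its level was 24.3, 44.2, 50.8 and 23.8 CPM in WT 1 to 4, and 96.5, 94.7, 67.1 and 130 CPM in KL-/- 1 to 4. Every KL-/- library exceeded every WT library, and WT 2 and 3 were again above WT 1 and 4. The means of 35.8 ± 13.8 and 97.1 ± 25.9 CPM (SD, n = 4 per genotype) gave a 2.72-fold difference, or 1.44 on the log2 scale (SE 0.28, 95% interval 0.82 to 2.07, FDR 0.0124). The gene passed FDR 0.05 in 8 of 8 fits with a library left out, at log2 fold changes of 1.27 to 1.66.

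The balance of the ligands shifted in every library. Per kilobase of counted exon, the *Igf2* to *Igf1* ratio was 1.74, 1.77, 1.85 and 1.78 in WT 1 to 4, so both ligands were high or low together in WT muscle. In KL-/- 1 to 4 it was 10.4, 8.0, 16.4 and 23.4. *Igf2* thus made up 63.5% to 65.0% of ligand CPM per kilobase in WT and 88.9% to 95.9% in KL-/-. Before division by length, mean CPM in WT was 35.8 for *Igf2* and 36.7 for *Igf1*. The shares and ratios therefore depend on the counted exon lengths, 4236 bases for *Igf2* and 7817 for *Igf1*. The sum of both ligands was 9.03, 16.3, 18.5 and 8.77 CPM per kilobase in WT 1 to 4 and 25.0, 25.2, 16.8 and 32.1 in KL-/- 1 to 4, and on this scale KL-/- 3 lay within the WT range. The ratio and the sum are descriptions of these libraries and were given no test of their own.

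**Figure D3:**
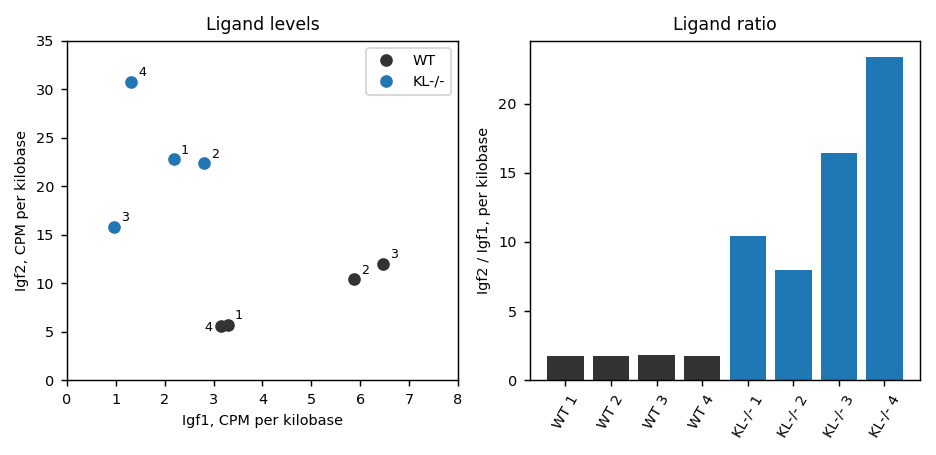
Left, *Igf2* against *Igf1* in CPM per kilobase for each library, WT in black and KL-/- in blue, with replicate numbers; right, bars of the *Igf2* to *Igf1* ratio in each library. The WT ratios lie between 1.74 and 1.85, and the KL-/- ratios range from 8.0 to 23.4.

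*H19*, the maternally expressed non-coding RNA that shares an imprinting centre with *Igf2*, did not pass the test. Its level was 890, 2294, 2206 and 677 CPM in WT 1 to 4, and 1074, 1627, 1330 and 1657 CPM in KL-/- 1 to 4. The genotypes overlapped, and WT 2 and 3 were the highest of the 8 libraries. The log2 fold change was −0.093 (SE 0.37, 95% interval −0.92 to 0.73, FDR 0.883). The counts do not separate the parental alleles.

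Markers of fibro-adipogenic progenitors, the mesenchymal cells of muscle interstitium, varied alongside *Igf1*, and alongside *Igf2* within WT only. Summed over 10 markers, all above 0 in every library, they were 1322, 2846, 3027 and 828 CPM in WT 1 to 4 and 992, 1355, 463 and 665 CPM in KL-/- 1 to 4. WT 2 and 3 were thus highest for this sum as for *Igf1*, and within WT for *Igf2*. By mean level, the largest parts of the sum were *Col3a1* (893 CPM in WT, 327 in KL-/-) and *Col1a1* (546 and 227 CPM). Neither collagen gene was called (FDR 0.126 and 0.145). In KL-/- muscle, 3 of the 10 markers were called lower (*Dcn*, *Lum*, *Dpp4*) and 0 higher, with a median log2 fold change of −0.93. Between the genotypes *Igf2* was higher while 10 of 10 markers had a negative log2 fold change, and the part of these markers in the *Igf1* result was not tested.

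*Igf1r* rose in KL-/- muscle. It lies at chr7:67952257-68233667 on the plus strand and encodes the signalling receptor of both ligands. Its level was 19.1, 28.3, 23.7 and 24.6 CPM in WT 1 to 4 and 49.4, 44.1, 38.0 and 26.0 CPM in KL-/- 1 to 4. Of the KL-/- libraries, 1, 2 and 3 lay above all WT libraries, and KL-/- 4 fell within the WT range. The means were 23.9 ± 3.77 and 39.4 ± 10.1 CPM (SD, n = 4 per genotype), a 1.65-fold difference (log2 0.72, SE 0.19, 95% interval 0.30 to 1.14, FDR 0.0343). The gene was called in 2 of 8 fits with a library left out, without KL-/- 2 or KL-/- 4. FDR was 0.0767, 0.0533, 0.0854 and 0.0598 without WT 1, 2, 3 and 4 in turn, 0.0743 without KL-/- 1 and 0.0722 without KL-/- 3, and 0.0531 when library totals replaced TMM.

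*Igf2r* fell slightly. It lies at chr17:12682406-12769706 on the minus strand. Its level was 136, 134, 151 and 135 CPM in WT 1 to 4 and 118, 126, 105 and 119 CPM in KL-/- 1 to 4. The genotypes did not overlap, with KL-/- 3 the lowest and WT 3 the highest. The means were 139 ± 7.89 and 117 ± 9.14 CPM (SD, n = 4 per genotype), a log2 fold change of −0.24 (SE 0.071, 95% interval −0.40 to −0.09, FDR 0.0485). The call held in 1 of 8 fits with a library left out, without KL-/- 2, and FDR was 0.0788, 0.0861, 0.125 and 0.0684 without WT 1, 2, 3 and 4 and 0.0930, 0.118 and 0.0983 without KL-/- 1, 3 and 4. It was also 0.0512 with limma-voom, 0.0589 with the likelihood ratio test and 0.0529 with the edgeR 3 form of the test.

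*Airn*, the paternal antisense transcript that represses *Igf2r* on its own allele, overlaps the receptor gene on the opposite strand but shares no exon base with it. It averaged 4.78 ± 0.31 CPM in WT and 5.47 ± 1.00 CPM in KL-/- (SD, n = 4 per genotype) and was not called (log2 fold change 0.20, 95% interval −0.13 to 0.52, FDR 0.378). The other carrier of mannose 6-phosphate-tagged enzymes, *M6pr*, had a log2 fold change of −0.069 (FDR 0.484). Of the 7 genes of the mannose 6-phosphate sorting list, all measured, 0 were called.

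Among the binding proteins, only *Igfbp6* passed the test. IGFBP6 prefers IGF2 over IGF1, and the gene lies at chr15:102144186-102149512 on the plus strand. Its level was 26.9, 30.5, 32.6 and 27.2 CPM in WT 1 to 4 and 18.8, 17.0, 11.3 and 11.5 CPM in KL-/- 1 to 4. The genotypes did not overlap, and the WT libraries were close to each other. The means were 29.3 ± 2.76 and 14.6 ± 3.84 CPM (SD, n = 4 per genotype), a fold of 0.50 (log2 −1.0, SE 0.17, 95% interval −1.38 to −0.62, FDR 0.00760). It was called in 8 of 8 fits with a library left out, at log2 fold changes of −1.14 to −0.89.

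*Igfbp4*, whose product inhibits IGF action until it is cleaved by PAPP-A, lies at chr11:99041260-99052643 on the plus strand. Its level was 38.9, 48.2, 59.9 and 38.6 CPM in WT 1 to 4 and 35.5, 38.5, 25.9 and 29.1 CPM in KL-/- 1 to 4. The genotypes did not overlap, but KL-/- 2 and WT 4 were nearly equal. The log2 fold change was −0.53 (SE 0.17, 95% interval −0.90 to −0.16, FDR 0.0625), short of the threshold. It passed with DESeq2 (FDR 0.0193), the likelihood ratio test (0.0226), library totals (0.0292) and without KL-/- 2 (0.0381).

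*Igfbp5*, the binder that muscle precursors make as they differentiate, lies at chr1:72858065-72874865 on the minus strand. Its level was 804, 724, 778 and 452 CPM in WT 1 to 4 and 331, 710, 333 and 341 CPM in KL-/- 1 to 4. KL-/- 2 stood with WT 1 to 3, far from the other KL-/- libraries, and WT 4 was the lowest WT library. The log2 fold change was −0.69 (SE 0.27, 95% interval −1.30 to −0.07, FDR 0.120). Without KL-/- 2 it was −1.03 with an FDR of 0.00677.

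*Igfbp7*, a weak IGF binder found in vessel walls, lies at chr5:77349240-77408045 on the minus strand and shares 89 exon bases with *Polr2b* on the opposite strand. Because the use of strand in the counting was not given in the sources used here, its counts may hold some reads of that gene. Its level was 78.6, 107, 133 and 78.9 CPM in WT 1 to 4 and 73.4, 86.7, 54.5 and 67.6 CPM in KL-/- 1 to 4. KL-/- 2 lay above WT 1 and 4, so the genotypes overlapped. The log2 fold change was −0.49 (SE 0.19, 95% interval −0.91 to −0.07, FDR 0.107), and FDR was 0.0492 with library totals.

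*Igfbp3*, the main carrier of IGFs in blood, lies at chr11:7206091-7213923 on the minus strand. Its level was 29.6, 31.8, 29.1 and 18.9 CPM in WT 1 to 4 and 19.5, 22.2, 35.3 and 37.1 CPM in KL-/- 1 to 4. KL-/- 3 and 4 were the highest of all libraries and KL-/- 1 and 2 were near the lowest WT library. The log2 fold change was 0.062 (SE 0.23, 95% interval −0.45 to 0.58, FDR 0.876), and it was −0.057 with library totals in place of TMM, so no direction is given.

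Per kilobase of counted exon, the 5 binders summed to 254, 272, 309 and 190 CPM in WT 1 to 4 and 157, 234, 137 and 152 CPM in KL-/- 1 to 4. KL-/- 2 lay above WT 4, and the other KL-/- libraries lay below all WT libraries. The ratio of this sum to that of the ligands was 28.1, 16.7, 16.7 and 21.6 in WT and 6.28, 9.29, 8.18 and 4.74 in KL-/-, with no overlap. *Igfbp5* made up 40.7% to 54.1% of the binder sum in WT and 36.1% to 51.9% in KL-/-, and *Igfbp7* made up 25.5% to 35.5% and 30.6% to 38.6%. *Igfbp3* supplied 10.5% and 9.99% in KL-/- 3 and 4, against 3.86% to 5.10% in the other 6 libraries. These are RNA levels and do not give the amount of each protein.

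**Figure D4:**
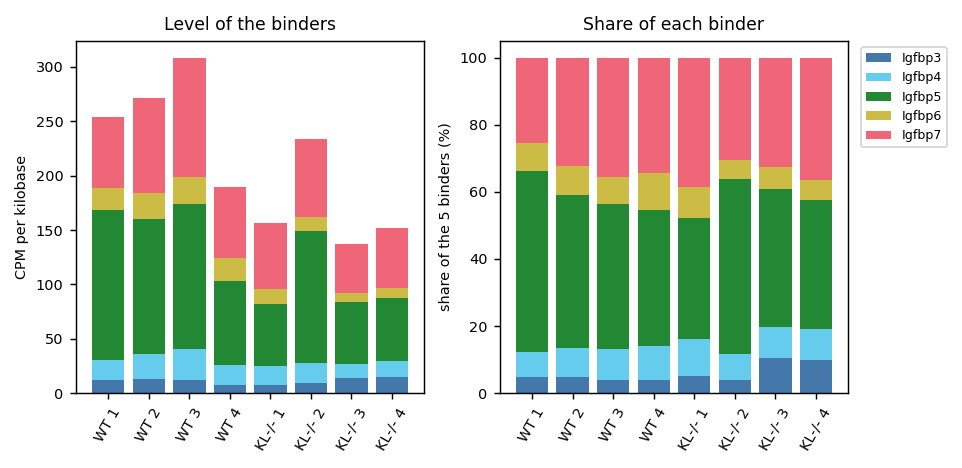
Stacked bars of the 5 binders in each library, in CPM per kilobase (left) and as a share of their sum (right). The WT sums span 190 to 309 and the KL-/- sums span 137 to 234, with *Igfbp5* and *Igfbp7* the main components throughout.

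On the same per-kilobase scale, the WT order of mean levels was *Igfbp5* (118), *Igfbp7* (81.8), *Igfbp6* (22.7), *Igfbp4* (22.5), *Igf2r* (15.5), *Igfbp3* (11.2), *Igf2* (8.45), *Igf1* (4.70) and *Igf1r* (2.00). The libraries of 4 neighbouring pairs overlapped: *Igfbp5* with *Igfbp7*, *Igfbp6* with *Igfbp4*, *Igfbp3* with *Igf2*, and *Igf2* with *Igf1*. In KL-/- the order was *Igfbp5* (73.2), *Igfbp7* (58.1), *Igf2* (22.9), *Igfbp4* (15.6), *Igf2r* (13.1), *Igfbp3* (11.7), *Igfbp6* (11.4), *Igf1r* (3.29) and *Igf1* (1.81). Here neighbours were apart only between *Igfbp7* and *Igf2* and between *Igfbp6* and *Igf1r*. *Igf2* was the seventh highest member in WT and the third highest in KL-/-, and *Igf1* moved to the lowest place. These places depend on the counted exon length of each gene.

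The genes whose log2 CPM followed each called member most closely over the 8 libraries were sought among 11910 others with a mean log2 CPM of at least 0, and both genotypes enter these Pearson values. For *Igf1* they were *Fbn1*, the microfibril protein fibrillin-1 (r = 0.996), *Ccl9* (0.994) and *Arsi* (0.993). *Igf2* was followed most closely by *Sned1* (0.963), *Ccdc141* (0.962) and *Gramd1b* (0.961). For *Igf1r* they were *Fam178a* (0.986), *Tnni1*, the slow-fibre troponin I (0.963), and *Mapk8ip3* (0.939). *Igf2r* was nearest to *Fchsd2* (0.985), *Ms4a4d* (0.983) and *Plxnd1* (0.979), and *Igfbp6* to *Efemp1* (0.989), the class II antigen gene *H2-Eb1* (0.986) and *Ecm1* (0.986). These values describe 8 points that share the difference between the genotypes.

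Other genes of the IGF axis were taken from 6 lists that hold 51 genes, of which 42 were counted. In KL-/- muscle 3 were called higher and 4 lower, 16.7% of those counted against 14.0% of all genes, and their median log2 fold change was 0.075. For the other IGF family members and binders, 4 of 10 were counted and 1 was called. *Igf2bp2*, which encodes an RNA-binding protein that binds *Igf2* mRNA, fell from 3.29 ± 1.10 to 1.54 ± 0.26 CPM (SD, n = 4 per genotype, log2 fold change −1.11, FDR 0.0223), although FDR was 0.0613 without KL-/- 3 and 0.0664 without KL-/- 4. *Insr*, the insulin receptor, had a log2 fold change of 0.027 (95% interval −0.15 to 0.20, FDR 0.833), and *Igfals*, the acid-labile subunit of the circulating complex, 0.13 (FDR 0.743).

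Of the 6 binder proteases and their inhibitors, 5 were counted. *Stc2*, whose product stanniocalcin-2 inhibits PAPP-A, rose from a mean of 2.27 ± 0.44 to 4.81 ± 1.94 CPM (SD, n = 4 per genotype, log2 1.09, SE 0.29, FDR 0.0360), with no overlap between the genotypes. The related *Stc1* had a log2 fold change of 1.12 and an FDR of 0.0599, and *Pappa* itself 0.22 with an FDR of 0.693 at levels under 1.1 CPM. *Htra1*, a secreted serine protease that cleaves matrix proteins and IGF binders, fell from 32.9 ± 5.72 to 18.5 ± 6.66 CPM (SD, n = 4 per genotype, log2 −0.84, FDR 0.0415), with KL-/- 2 inside the WT range. With a library left out, *Stc2* was called without KL-/- 1 or KL-/- 2 and *Htra1* without WT 1 or KL-/- 2. In the other 6 fits of each, FDR reached at most 0.0914 for *Stc2* and 0.107 for *Htra1*.

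Of 8 genes through which growth hormone controls *Igf1*, all counted, 1 was called. *Stat5a*, a transcription factor of the growth hormone receptor, was 24.6, 25.9, 24.2 and 23.3 CPM in WT 1 to 4 and 18.0, 18.0, 19.8 and 20.6 CPM in KL-/- 1 to 4. The genotypes did not overlap (log2 −0.36, SE 0.072, FDR 0.0142), and it was called in 8 of 8 fits with a library left out. The related *Stat5b* was far more abundant and was not called. It averaged 334 ± 48.6 CPM in WT and 346 ± 23.6 CPM in KL-/- (SD, n = 4 per genotype, log2 0.051, 95% interval −0.18 to 0.28, FDR 0.764). *Ghr*, the growth hormone receptor, averaged 175 ± 15.8 CPM in WT and 174 ± 19.9 CPM in KL-/- (SD, n = 4 per genotype), a log2 fold change of −0.0081 with a 95% interval of −0.22 to 0.20 (FDR 0.962).

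Of 16 genes acting just below the receptors, all counted, 2 were called higher and 1 lower. *Grb14*, an adaptor that inhibits the insulin receptor, was 34.3, 28.5, 31.0 and 33.1 CPM in WT 1 to 4 and 15.6, 23.4, 14.5 and 14.4 CPM in KL-/- 1 to 4. Every KL-/- library was below every WT library, and KL-/- 2 was nearest to WT (log2 −0.90, SE 0.15, FDR 0.00760). *Grb14* was called in 8 of 8 fits with a library left out, whereas its imprinted relative *Grb10* had a log2 fold change of 0.13 (FDR 0.673). *Pik3r1*, the regulatory subunit of PI3-kinase, was 37.9, 40.7, 42.5 and 39.9 CPM in WT 1 to 4 and 106, 45.7, 130 and 62.9 CPM in KL-/- 1 to 4. The WT libraries were nearly equal and the KL-/- libraries were all higher but widely spread (log2 1.10, SE 0.28, FDR 0.0306).

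*Akt1*, a kinase activated below IGF1R, rose from 74.8 ± 5.65 to 101 ± 17.4 CPM (SD, n = 4 per genotype, log2 0.44, FDR 0.0415), with KL-/- 2 at 75.8 CPM inside the WT range. With a library left out, *Pik3r1* was called without KL-/- 2 or KL-/- 4 and *Akt1* without KL-/- 2. In the other fits FDR reached at most 0.0752 for *Pik3r1* and 0.107 for *Akt1*. The docking proteins did not pass the test. *Irs1* was 50.1 to 229 CPM in KL-/- and 100.4 to 136 CPM in WT (log2 −0.088, FDR 0.895), and *Irs2* had a log2 fold change of 0.63 (95% interval −0.07 to 1.33, FDR 0.196).

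**Figure D5:**
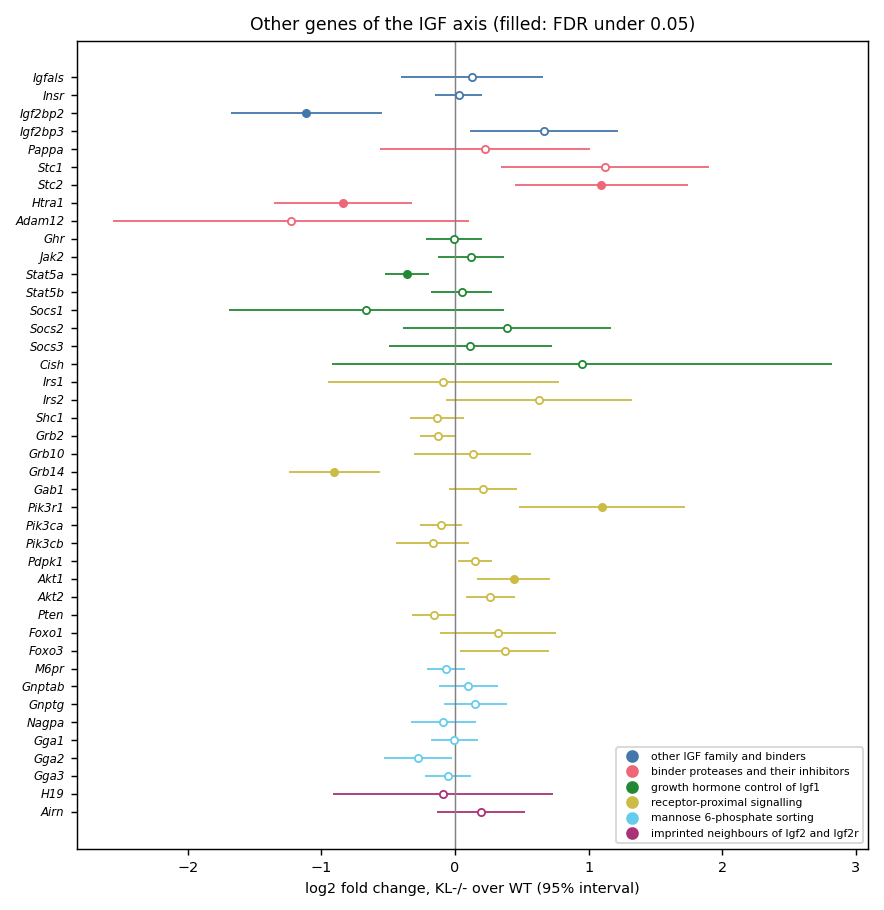
Log2 fold change, KL-/- over WT, with its 95% interval for the 42 other IGF axis genes, coloured by list; filled points passed FDR 0.05. The filled points are *Stc2*, *Pik3r1* and *Akt1* on the higher side and *Igf2bp2*, *Htra1*, *Grb14* and *Stat5a* on the lower side.

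Markers of other cell types also differed between the libraries. Endothelial markers summed to 593 to 853 CPM in WT and 577 to 611 CPM in KL-/-, with 1 of 10 called lower, and pericyte and smooth muscle markers to 723 to 972 and 818 to 915 CPM, with 1 of 10 called higher. Macrophage markers summed to 67.0 to 140 CPM in WT and 48.0 to 83.5 CPM in KL-/-, with 2 of 10 called lower, and tendon markers to 181 to 224 and 55.3 to 142 CPM, with 2 of 5 called lower. Schwann cell markers summed to 31.2 to 56.7 CPM in WT and 63.1 to 81.4 CPM in KL-/-, with 3 of 5 called higher. Markers of satellite cells, the muscle stem cells, summed to 18.1 to 31.5 and 23.7 to 37.8 CPM, with 0 of 5 called. Adipocyte markers, 3 of 5 counted, summed to 179 to 199 and 206 to 252 CPM with 1 called higher, and 1 of 5 erythroid markers was counted and not called. The tendon, Schwann cell and adipocyte sums did not overlap between the genotypes. Most of the adipocyte sum was *Fabp4*, at means of 187 CPM in WT and 225 CPM in KL-/-. The genotypes overlapped for the other adipocyte markers counted, *Adipoq* (FDR 0.218) and *Cidec* (FDR 0.181). The part of any of these cell types in the member results was not tested.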

How the data were processed

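The authors deposited counts per gene for 8 libraries made from 100 ng of RNA each, described as total RNA in the labels and as mRNA in the methods. Per the labels and the methods, reads were checked with FastQC, aligned to mm10 with STAR and counted with featureCounts. The annotation version and the use of strand are not given in the sources used here. Reads from overlapping opposite-strand genes can therefore be mixed, and *Igf1* and *Igf2* overlap annotated antisense genes. The deposited counts are whole numbers without normalisation and already limited to expressed genes, so edgeR's default filter kept all 12551.

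Differential expression was tested with edgeR 4.0.16 in R 4.3.3, using TMM factors, a model with genotype only, the quasi-likelihood test and Benjamini-Hochberg adjustment over all 12551 genes, at an FDR under 0.05. SE was the absolute log2 fold change divided by the root of the F statistic. TMM factors were 1.02 to 1.05 in WT and 0.950 to 0.980 in KL-/- (two-sided exact permutation p = 0.0286, the smallest that 70 relabellings give). Library totals did not pass the same test (exact permutation p = 0.371). CPM per kilobase used the counted exon length. The labels list each library as a separate TA sample. No pair of libraries of a genotype agreed within sampling noise.

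Members, lists and markers were chosen with earlier results of these data known. Named genes are the 9 members, called genes of the lists, list genes whose product binds or processes a member directly, and for each called member the 3 genes closest to it in log2 CPM (prior count 2). From the lists, *Stc1*, *Stat5b*, *Irs1* and *Irs2* were added to the named genes after their values were seen, as were the markers *Col1a1*, *Col3a1*, *Fabp4*, *Adipoq* and *Cidec*. Called means past FDR 0.05. Alternatives were RLE factors, library totals, no filter, at least 10 counts in every library, DESeq2 1.42.0, limma-voom (limma 3.58.1), the likelihood ratio test, the replicate number as a block, each library left out and, chosen after seeing the data, the edgeR 3 quasi-likelihood test. The test was checked on simulated counts. Floors cover counting error only.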

Additional observations from a re-analysis of the deposited data

Results flagged for a closer look

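In all, 3 values stood apart from the other 3 libraries of their genotype, among 48 groups examined over 24 genes, when chance sets about 1 in 20 groups apart. *Igf2r* was 151 CPM in WT 3, with the nearest WT library at 136 CPM and a gap of 0.872 of the group's range. *Igfbp5* was 710 CPM in KL-/- 2, with the nearest KL-/- library at 341 CPM and a gap of 0.973 of the range. *Grb14* was 23.4 CPM in KL-/- 2, with the nearest at 15.6 CPM and a gap of 0.868 of the range. Both KL-/- values lay on the side of the WT libraries. Over all genes KL-/- 2 also stood apart, by a chi-square per gene that measures departure from sampling noise. It was 84.2, 84.4 and 60.3 against KL-/- 1, 3 and 4. The other KL-/- pairs had 17.8 to 27.8, and the WT pairs 9.91 to 45.9.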

How the results depend on the processing

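*Igf2* and *Igfbp6* passed FDR 0.05 in all 8 fits with a library left out and under all 9 other alternatives. Among these, the fit with no filter was the same as the main fit, since the default filter had kept all 12551 genes. The count of called members, 5, was 2 to 7 with a library left out. It was 3 without WT 1, 2 without WT 2, 2 without WT 3, 3 without WT 4, 2 without KL-/- 1, 7 without KL-/- 2, 2 without KL-/- 3 and 3 without KL-/- 4. The counts for other IGF axis genes, 7, ran from 2 (without KL-/- 3) to 10 (without KL-/- 2), with 4, 3, 3 and 3 without WT 1 to 4 and 5 and 3 without KL-/- 1 and 4. For all genes, 1759 became 762 (without KL-/- 3) to 2755 (without KL-/- 2), with 1193, 780, 775 and 1368 without WT 1 to 4 and 1224 and 778 without KL-/- 1 and 4.

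The *Igfbp3* log2 fold change of 0.062 became −0.057 with library totals, −0.080 without WT 4, −0.056 without KL-/- 3 and −0.092 without KL-/- 4, with a range of −0.092 to 0.22 over the libraries left out, and it was not called in any of these. Library totals moved the median of all genes from −0.016 to −0.13 and the called genes from 52.4% higher to 18.8% higher (2619 called). The members were then 1 higher and 5 lower. With the replicate block, 671 genes, 2 members (*Igf2* and *Igfbp6*) and 2 other IGF axis genes (*Grb14* and *Htra1*) were called. Same-numbered WT and KL-/- libraries had correlations of −0.15, 0.18, −0.37 and 0.017 in their deviations from the genotype means. No pairing by number was seen in these values, but so few libraries cannot exclude one. DESeq2 called 2456 genes and 6 members. Depth did not limit the members, the rarest of which had 182 counts in its lowest library.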
